A study of Mus musculus with 9 samples.

Results

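Jun, Fos, Junb and Egr1 are immediate early genes, and the XBP1 peaks around them were taken from 8 deposited peak lists of mouse liver. A peak was counted for a gene when its midpoint lay in a fixed window of the mm9 genome build. The windows were chromosome 4 from 94695001 to 94740000 for Jun (45 kb), chromosome 12 from 86800001 to 86835000 for Fos (35 kb), chromosome 8 from 87490001 to 87600000 for Junb with its flanks (110 kb), and chromosome 18 from 35005001 to 35040000 for Egr1 (35 kb). Together they held 75 peaks of the 64078 peaks in all lists, which merged into 31 of 28177 regions. Each list came from 1 library of XBP1 chromatin immunoprecipitation and sequencing (ChIP-seq), made with the antibody M-186 from liver of wildtype C57Bl6-J mice. Of the 5 unsilenced states, 1 was basal liver, 2 followed a partial hepatectomy (at 6 h or 48 h) and 2 followed sham surgery (at 6 h or 48 h). In the other 3 states XBP1 had been silenced 7 days before with an adenoviral shRNA named shXBP1, in basal liver and at both times of hepatectomy. Operated mice were 8 weeks old at surgery. A control virus against LacZ and clodronate liposomes appear in the protocol, but the labels do not tie either to single libraries, and they do not say whether a library is 1 animal or a pool. The antibody signal comes from whole tissue, so the liver cells that carry a site are not identified. Since there was 1 library per condition, no difference below has a replicate check and no test was run.

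Immediate early genes are transcribed within minutes of a stimulus without new protein synthesis, and in the liver they are among the earliest genes switched on when tissue is removed or injured. Jun and Fos proteins pair through their leucine zippers to form AP-1, Junb is a related partner that competes for the same places, and Egr1 is a zinc finger factor of the same early wave. XBP1 is a basic leucine zipper factor too: the sensor IRE1 splices its messenger RNA during endoplasmic reticulum stress, and the spliced form switches on genes for protein folding and secretion at elements with an ACGT core.

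The promoters of these genes are shown because they carry, or lack, the short elements that XBP1 and AP-1 proteins are known to read. RefSeq sequences of build GRCm38.p6, running from 250 bases before to 50 bases after the gene start, were at hand for 3 of the 4 genes, Jun, Junb and Fos. They are written on the gene's own strand, which is minus for Jun and Junb and plus for Fos. Capitals mark matches on either strand to TGACGTGG (the XBP1-type element), CCACG (the part of the stress element that accompanies CCAAT), ACGT (the core, also inside TGACGTGG and TGACGTCA), TGACGTCA (the cyclic AMP element) or TGANTCA (the AP-1 element).
Jun: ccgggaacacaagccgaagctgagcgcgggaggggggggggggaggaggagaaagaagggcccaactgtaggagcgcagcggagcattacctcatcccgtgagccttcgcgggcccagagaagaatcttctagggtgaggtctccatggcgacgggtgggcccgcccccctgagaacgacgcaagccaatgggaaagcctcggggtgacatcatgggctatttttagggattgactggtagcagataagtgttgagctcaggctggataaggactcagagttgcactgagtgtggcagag
Fos: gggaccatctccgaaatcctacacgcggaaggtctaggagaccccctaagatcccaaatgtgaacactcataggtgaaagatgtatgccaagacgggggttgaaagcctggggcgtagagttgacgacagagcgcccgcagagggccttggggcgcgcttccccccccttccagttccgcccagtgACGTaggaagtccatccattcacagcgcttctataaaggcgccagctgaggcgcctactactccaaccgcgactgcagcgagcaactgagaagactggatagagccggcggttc
Junb: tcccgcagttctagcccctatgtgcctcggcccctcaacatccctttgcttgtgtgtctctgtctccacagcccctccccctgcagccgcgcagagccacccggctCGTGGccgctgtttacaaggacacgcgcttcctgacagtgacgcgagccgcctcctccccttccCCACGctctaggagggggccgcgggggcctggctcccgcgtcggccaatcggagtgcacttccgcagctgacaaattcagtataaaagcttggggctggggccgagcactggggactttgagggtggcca

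The Fos promoter held 1 match, an ACGT core that begins at position -64 from the gene start. The Junb promoter held 2 matches to CCACG, beginning at positions -144 and -80, the first of them on the opposite strand. None of the searched patterns occurred in the Jun promoter of 300 bases, which says nothing about binding there. Only exact matches were searched, and the Jun promoter does hold tgacatca, which differs from TGACGTCA at a single base. Of all 32851 promoters in the table, 30.9% held ACGT, 32.8% held CCACG, 7.81% held TGANTCA, 1.79% held TGACGTCA and 0.676% held TGACGTGG. A further 18 immediate early genes were listed, and 14 of them had a promoter in the table. A listed gene counted if any of its promoters there held the element, whereas the percentages above are shares of single promoters. Among these 14, 10 held ACGT (Atf3, Btg2, Dusp1, Egr2, Gadd45b, Ier3, Jund, Klf4, Klf6 and Maff), 7 held CCACG, 3 held TGACGTCA (Btg2, Dusp1 and Maff), and 0 held TGACGTGG or TGANTCA. The peak files are in mm9 and these sequences are not, so whether a peak covers a promoter was not determined, and peaks near the 18 listed genes were not counted.

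Peaks lay in all 4 windows in both unsilenced 6 h lists and in fewer of them in every other list. Of all windows of the same widths, 16.7% to 33.8% held a peak in the unsilenced 6 h lists. In the other lists the share was 0.113% to 18.5%, so fewer windows with a peak are not particular to these genes. The 6 h hepatectomy list had 28 peaks in the windows, of 22071 peaks in that list. Its sham counterpart had 23 of 23087. The numbers were 8 of 7212 peaks 48 h after hepatectomy and 8 of 4622 peaks 48 h after sham surgery, and basal liver had 3 of 2482.

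As a share of each list, the window peaks ranged from 0.0996% to 0.173% in these states. They made up 0.127% of the 6 h hepatectomy list (95% Clopper-Pearson interval 0.0843 to 0.183%, which covers counting error only), 0.0996% of the 6 h sham list (0.0632 to 0.149%) and 0.121% of the basal list (0.0249 to 0.353%). At 48 h the shares were 0.111% after hepatectomy (0.0479 to 0.218%) and 0.173% after sham surgery (0.0748 to 0.341%). All 5 intervals overlapped, and the larger numbers of window peaks at 6 h came from the longest lists. The intervals treat peaks as independent, but the Junb window held 21 of 28 peaks after hepatectomy and 16 of 23 after sham surgery at 6 h. The intervals may thus be too narrow, and their overlap does not show that the shares are alike. Read depth per library is not given in the sources used here, and its part in list length was not tested.

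Among the silenced livers, the list of 6 h after hepatectomy had 5 window peaks of 4325, which is 0.116% (0.0375 to 0.27%). Silenced basal liver had 0 of 177 peaks and silenced liver at 48 h had 0 of 102 peaks, counts that allow shares of up to 1.69% and 2.94%. These short lists could not have shown a share like that of the unsilenced lists.

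**Figure D1:**
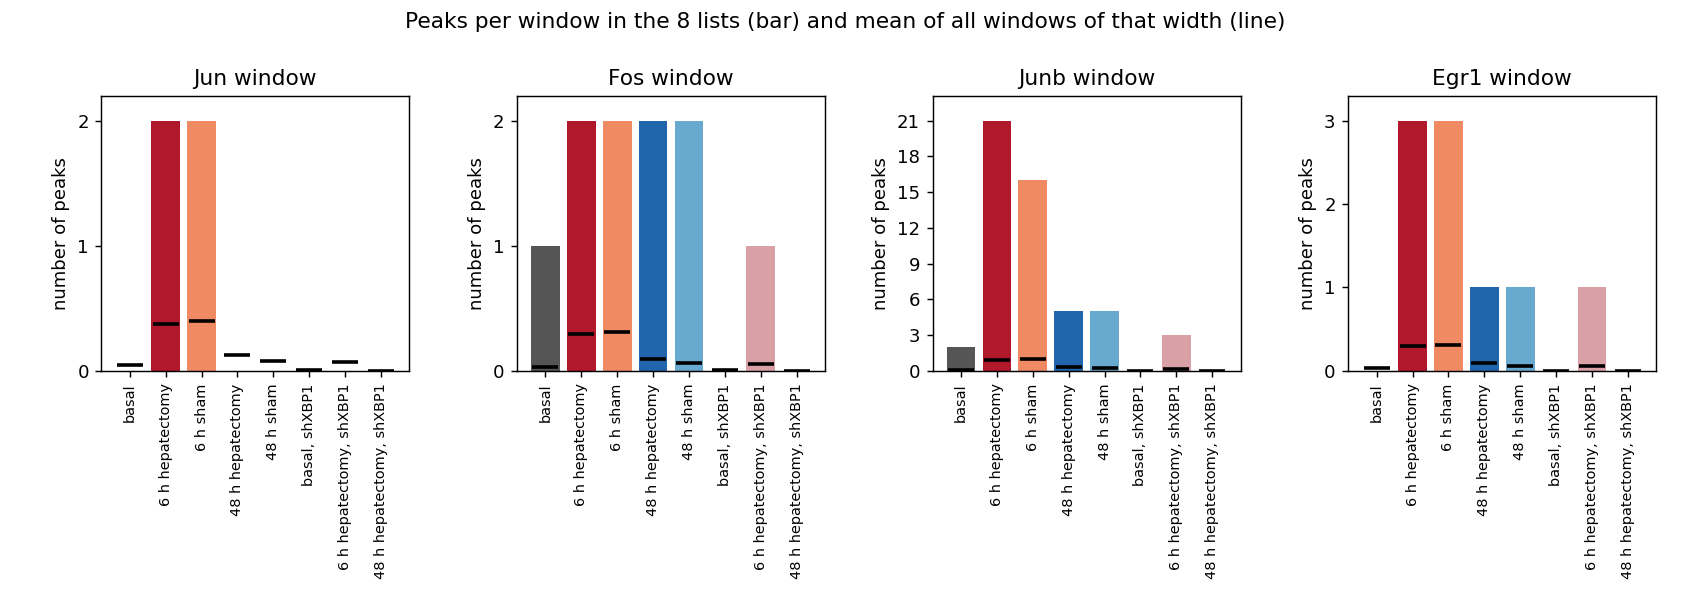
Number of XBP1 peaks (vertical axis) in the Jun, Fos, Junb and Egr1 windows for each of the 8 lists (bars, 1 library each); the black lines are the mean number over all windows of the same width laid along the genome. Both 6 h lists have peaks in all 4 windows, with 21 and 16 in the Junb window, and the silenced basal and silenced 48 h lists have none.

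Egr1, whose protein binds GC-rich sites and is induced by growth factors and injury, had 1 dominant site and 3 weaker ones. The dominant site lay on chromosome 18 between 35024503 and 35025546. In the 6 h hepatectomy list its peak was 1036 bp wide with a score of 115.26, at rank 1110 (top 5.03% of the list). The score is the peak caller's own value, its scale is not stated, and it ranks peaks only within a list. In the 6 h sham list the same site was 938 bp wide with a score of 64.7, at rank 1227 (top 5.31%). The site therefore stood near the top of both 6 h lists and was the highest-ranked of all window peaks in each.

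At 48 h the dominant Egr1 site held the only peak of its window, with a score of 14.21 after hepatectomy (rank 2681, top 37.2%) and 17.39 after sham surgery (rank 1800, top 38.9%). The silenced 6 h list also had a peak there, with a score of 31.58 at rank 595 (top 13.8%). Basal liver had none, and its nearest peak was 66 kb away. The midpoints of the 5 peaks at this site lay within 185 bp of each other.

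The other Egr1 sites were seen at 6 h alone. One of them, at 35027477 to 35027930, was in both 6 h lists, with scores of 12.77 after hepatectomy and 13.05 after sham surgery. A site at 35019994 to 35020310 was in the sham list only (score 15.26) and one at 35028024 to 35028547 in the hepatectomy list only (score 10.69). All of these had ranks between top 51.8% and top 81.9%. A window of 35 kb had at least 1 peak at 16.7% of all positions in the 6 h hepatectomy list and 17.1% in the 6 h sham list. The share was 7.57% and 5.20% in the 48 h lists of hepatectomy and sham surgery, 3.04% in basal liver and 5.00% in the silenced 6 h list. These backgrounds cover whole chromosomes, gene-poor stretches included, and windows around other genes could not be drawn without an mm9 annotation.

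Fos, the partner of Jun in AP-1, had 2 sites whose centres were 12.2 kb apart. The one at higher coordinates, on chromosome 12 between 86826707 and 86827305, was the most widely shared, with a peak in all 5 unsilenced lists and in the silenced 6 h list. Its score was 100.47 in the 6 h hepatectomy list (rank 1334, top 6.04%). After sham surgery it was 53.11 at 6 h (rank 1719, top 7.45%) and 19.61 at 48 h (rank 1506, top 32.6%). Basal liver already had a peak there, with a score of 13.19 at rank 1420 (top 57.2%).

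At 48 h after hepatectomy this Fos site had a score of 8.41 at rank 5961 (top 82.7%). In the silenced 6 h list it had a score of 17.39 at rank 1672 (top 38.7%). The 6 midpoints lay within 54 bp of each other, so the position was the same in every list that had it. The nearest peak of the silenced basal and silenced 48 h lists was 111 kb away in each.

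The Fos site at lower coordinates, between 86814506 and 86815094, was found in the 4 unsilenced lists that followed surgery and in neither the basal nor any silenced list. At 6 h its score was 17.2 after hepatectomy (rank 11950, top 54.1%) and 30.04 after sham surgery (rank 4664, top 20.2%). At 48 h it was 10.42 after hepatectomy (rank 4461, top 61.9%) and 14.21 after sham surgery (rank 2398, top 51.9%). It outranked the other Fos site in the 48 h hepatectomy list only. A peak was present in the Fos window in 6 of 8 lists, where the share of 35 kb windows with a peak is that given for Egr1. It was 0.164% in silenced basal and 0.113% in silenced 48 h liver, where neither Fos nor Egr1 had a peak.

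**Figure D2:**
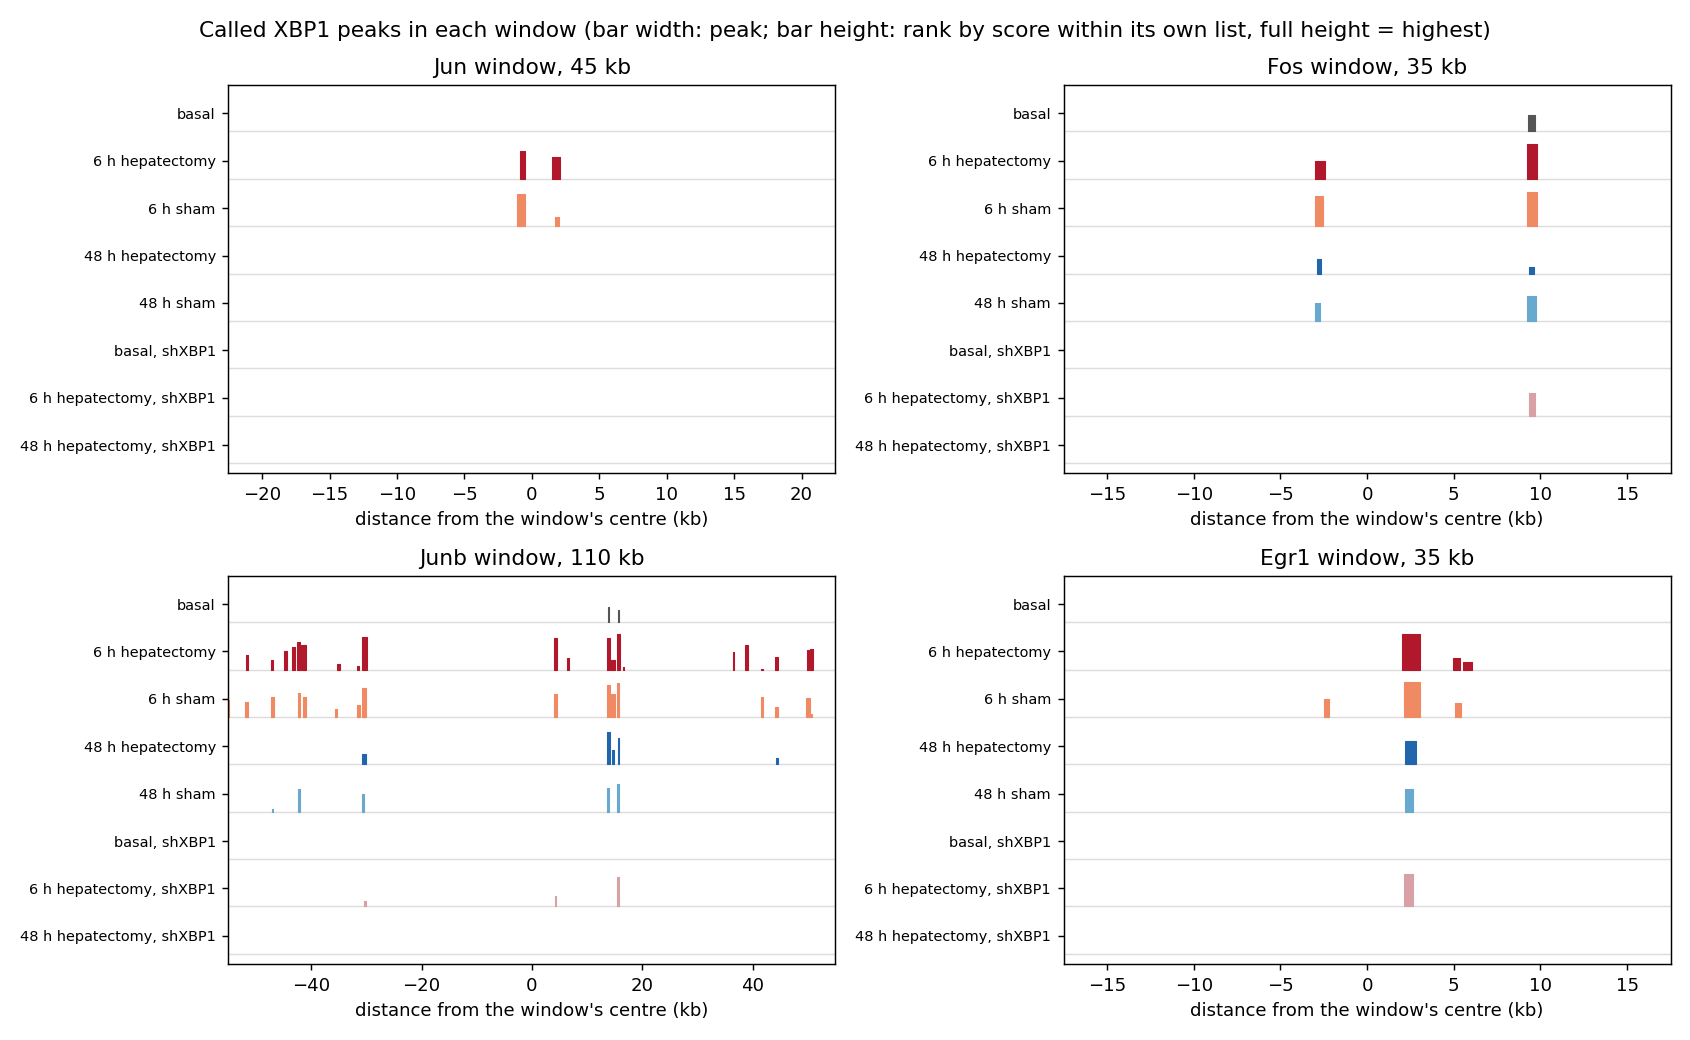
Position of every called peak in the 4 windows, in kb from the window's centre (horizontal axis), with 1 row per list; bar width is peak width and bar height is the peak's rank by score within its own list, so heights are not signal compared between lists. The dominant Egr1 site, the Fos site at higher coordinates and the middle group of the Junb window recur at the same place from list to list.

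Jun, the AP-1 subunit that drives hepatocyte cycling in regenerating liver, had peaks only in the 2 unsilenced 6 h lists. Its 2 sites on chromosome 4 were separated by 1997 bp. The site between 94716417 and 94717024 had a score of 33.5 after hepatectomy (rank 5814, top 26.3%) and 38.22 after sham surgery (rank 3098, top 13.4%). The site between 94719022 and 94719562 had a score of 21.94 after hepatectomy (rank 9261, top 42%) and 10.94 after sham surgery (rank 17435, top 75.5%). Both operations thus gave the same pair of Jun sites, and the first of the pair ranked higher in each list.

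No peak was called in the Jun window in the other 6 lists. The nearest peak to the first Jun site was 44.1 kb away 48 h after hepatectomy, 70.6 kb away 48 h after sham surgery, 91 kb away in basal liver and 43.9 kb away in the silenced 6 h list. A window of 45 kb had at least 1 peak at 19.8% of positions in the 6 h hepatectomy list and 20.1% in the 6 h sham list. In the lists without a Jun peak the share was 9.26% (48 h hepatectomy), 6.44% (48 h sham), 3.84% (basal), 6.24% (silenced 6 h), 0.215% (silenced basal) and 0.145% (silenced 48 h). Most windows of that width were therefore empty in every list, and an empty Jun window outside 6 h does not set Jun apart.

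Junb, which encodes another AP-1 subunit, lies in a window that was drawn wider than the others and was dense in peaks. At 6 h it contained 21 peaks in the hepatectomy list and 16 in the sham list. At 48 h there were 5 in each list, basal liver had 2 and the silenced 6 h list had 3. At least 1 peak in 110 kb was found at 33.1% of positions 6 h after hepatectomy, 33.8% 6 h after sham surgery, 18.5% 48 h after hepatectomy, 13.5% 48 h after sham surgery, 8.50% in basal liver and 13.2% in the silenced 6 h list. In the silenced basal and silenced 48 h lists, which had no Junb peak, it was 0.502% and 0.355%.

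The density was 1.91 peaks per 10 kb 6 h after hepatectomy, where the mean over all such windows was 0.0838, and 1.45 per 10 kb 6 h after sham surgery, with a mean of 0.0876. When windows of 110 kb were placed every 10 kb, 0.00494% held 21 peaks or more in the hepatectomy list and 0.0392% held 16 or more in the sham list. Those windows overlap each other and include the Junb window itself. The most in any such window was 35 peaks after hepatectomy and 23 after sham surgery. The window was proposed with earlier results of these lists known, so its high density is a description.

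Junb peaks fell into 3 groups separated by more than 10 kb, which were drawn after the positions were seen. The first group ran from 87489863 to 87515100 with 11 merged regions, the second from 87548985 to 87561795 with 6, and the third from 87581417 to 87596027 with 6. Gaps of 33.9 kb and 19.6 kb lay between them. In the 6 h hepatectomy list the groups held 9, 6 and 6 peaks, and in the 6 h sham list 8, 4 and 4. Only the second group had peaks in basal liver. In GRCm38 the protein-coding genes next to Junb are Prdx2, an antioxidant peroxiredoxin, and Rnaseh2a, a ribonuclease H subunit, on one side and Hook2 and Best2 on the other. Which group lies nearest to Junb itself was not determined, so these peaks cannot be assigned to Junb.

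The second group held the strongest and most widely shared site of the Junb window, between 87560377 and 87560921, called Junb region 16 by its order in the window. It had a score of 111.68 after hepatectomy at 6 h (rank 1167, top 5.29%) and 49.74 after sham surgery at 6 h (rank 1958, top 8.48%). At 48 h the score was 16.22 after hepatectomy (rank 2086, top 28.9%) and 22.87 after sham surgery (rank 1200, top 26%). Basal liver gave 11.11 (rank 1679, top 67.6%) and the silenced 6 h list 24.95 (rank 895, top 20.7%). It was thus present in 6 of 8 lists, with midpoints within 76 bp. Ranks in lists of unlike length are given side by side and are not compared as a change.

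Junb region 14, between 87558592 and 87559207, lay next to it and was in all 5 unsilenced lists but in no silenced one. Its score was 47.52 after hepatectomy (rank 3784, top 17.1%) and 36.82 after sham surgery (rank 3313, top 14.4%) at 6 h. At 48 h it was the highest Junb peak after hepatectomy, with a score of 25.26 (rank 972, top 13.5%), and had 18.11 after sham surgery (rank 1672, top 36.2%). In basal liver it had a score of 12.21 (rank 1474, top 59.4%) and was likewise the highest of the window. The order of regions 14 and 16 was thus not the same in all lists: region 14 led in the basal and 48 h hepatectomy lists and region 16 in both 6 h lists and the 48 h sham list.

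In the first group, Junb region 11, between 87514133 and 87515100, was found in the 4 unsilenced lists that followed surgery and in the silenced 6 h list. It had scores of 60.96 (top 12.3%) and 28.73 (top 21.7%) at 6 h after hepatectomy and sham surgery. At 48 h they were 9.35 (top 72.2%) and 13.64 (top 53.2%), and in the silenced 6 h list 8.97 (top 87.6%). The other 20 Junb regions were each in at most 3 lists.

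**Figure D3:**
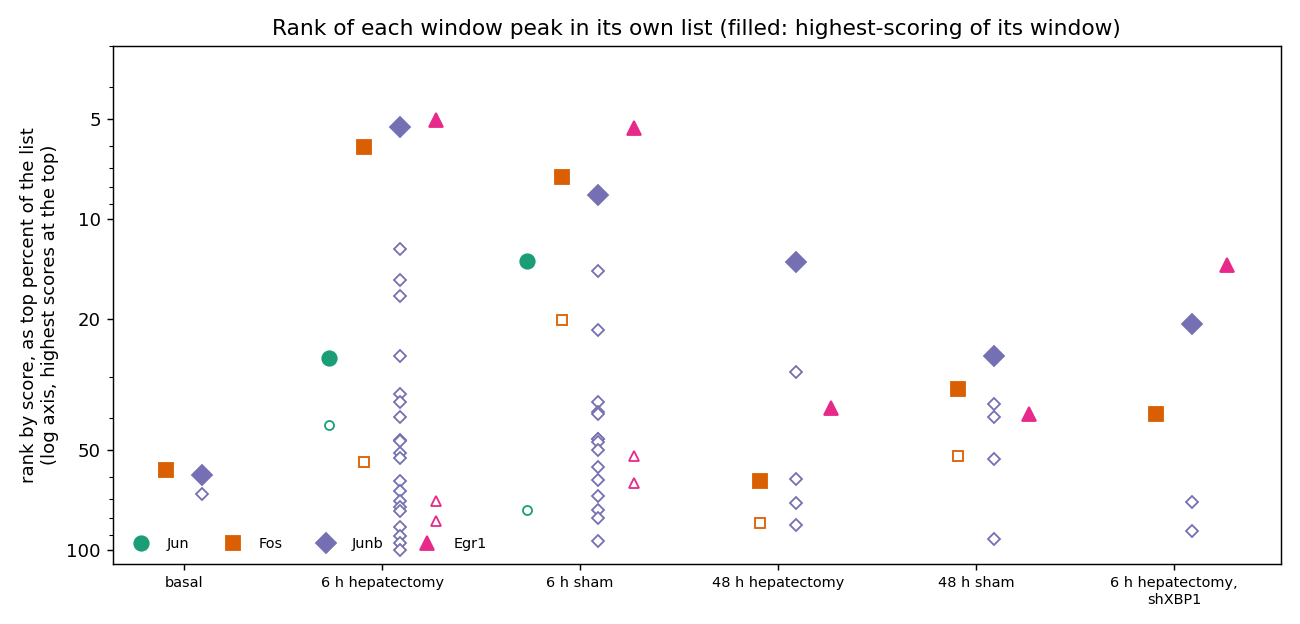
Rank of each window peak within its own list, as the top percent by score (vertical log axis, highest scores at the top), for the 6 lists that had a window peak; filled symbols are the highest-scoring peak of each gene's window and open symbols the others. The best Egr1, Junb and Fos peaks lie at top 5.03%, 5.29% and 6.04% of the 6 h hepatectomy list, while the Jun peaks lie at 26.3% and 42%.

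When each unsilenced list was reduced to its 2482 highest-scoring peaks, the length of the basal list, the same 3 sites were left at 6 h after both operations. These were the dominant Egr1 site, the Fos site at higher coordinates and Junb region 16. In the 48 h hepatectomy list 2 peaks were left, Junb regions 14 and 16. In the 48 h sham list 6 were left, at both Fos sites, the dominant Egr1 site and Junb regions 6, 14 and 16. Junb region 11 tied there with the lowest score taken, 13.64, and fell out because ties were broken by position; with tied peaks kept, the count was 7 in that list and the same in the other 4. No Jun peak was left in any list.

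Hepatectomy was compared with sham surgery to see which sites went with the loss of tissue. At 6 h, 20 of 28 window peaks of the hepatectomy list overlapped a sham peak by at least 1 bp, which is 71.4% (51.3 to 86.8%), and the share in the whole list was 76.9%. All Jun and Fos peaks were among the 20, with 2 of 3 Egr1 peaks and 14 of 21 Junb peaks. At 48 h the count was 6 of 8, or 75% (34.9 to 96.8%), against 47.1% in the whole list, with both Fos peaks, the Egr1 peak and 3 of 5 Junb peaks. The whole-list share lay inside both intervals.

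Of the 31 merged regions, 8 were in the 6 h hepatectomy list alone, 7 of them Junb and 1 Egr1. The share of all regions in this class was 16.7%. Another 3 were in the 6 h sham list alone, 2 at Junb and 1 at Egr1, where 19.6% of all regions fell. Both 6 h lists and no other held 9 regions, with a share of 31.0% among all regions, and these included both Jun sites. No window region lacked a peak in both 6 h lists, a class that held 1.33% of all regions.

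The time courses ask which sites were there before surgery and which lasted. Of the 28 window peaks 6 h after hepatectomy, 3 overlapped a basal peak (10.7%, 2.27 to 28.2%), close to the 10.9% of the whole list. When 50% or more of each peak had to overlap, it was 3.57%, and with both lists reduced to their top 2482 peaks by score it was 66.7%, from 3 window peaks. Of the 23 peaks 6 h after sham surgery it was also 3 (13%, 2.78 to 33.6%), beside 10.5% of the whole list. Between equal numbers this share was also 66.7%, from 3 window peaks. Both comparisons use the same basal library. The 3 shared sites were those of basal liver, the Fos site at higher coordinates and Junb regions 14 and 16. All 8 window peaks at 48 h after hepatectomy lay on a peak of the 6 h hepatectomy list (63.1 to 100%), where the whole list gave 91.0%. All 8 window peaks at 48 h after sham surgery lay on a 6 h sham peak (63.1 to 100%), with 97.7% in the whole list. Against only as many of the highest-scoring 6 h peaks as the 48 h list had, the 2 shares were 62.5% after hepatectomy and 50% after sham surgery. No whole-list share was computed under the 50% or equal-number settings. Those values therefore have no background beside them and do not set the window peaks apart. In the unsilenced 48 h lists both Jun sites had no peak, while both Fos sites and the dominant Egr1 site still had one. The share of all 6 h peaks still called at 48 h was not computed. With each list cut to its top 2482 peaks, no Jun peak was left at 6 h either. The 48 h hepatectomy list then kept no Fos or Egr1 peak, and the 48 h sham list kept both Fos sites and the dominant Egr1 site.

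Sharing across all 8 lists was counted for the window regions, 23 of them in the Junb window, and for all regions. No interval was computed and the difference between the shares was not tested. A peak in at least 4 lists was found for 6 of 31 window regions (19.4%), with 16.4% among all regions. At least 5 lists held 5 of 31 (16.1%), with 9.95% among all. At least 6 lists held 2 of 31 (6.45%), with 5.46% among all. The 2 were the Fos site at higher coordinates and Junb region 16.

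**Figure D4:**
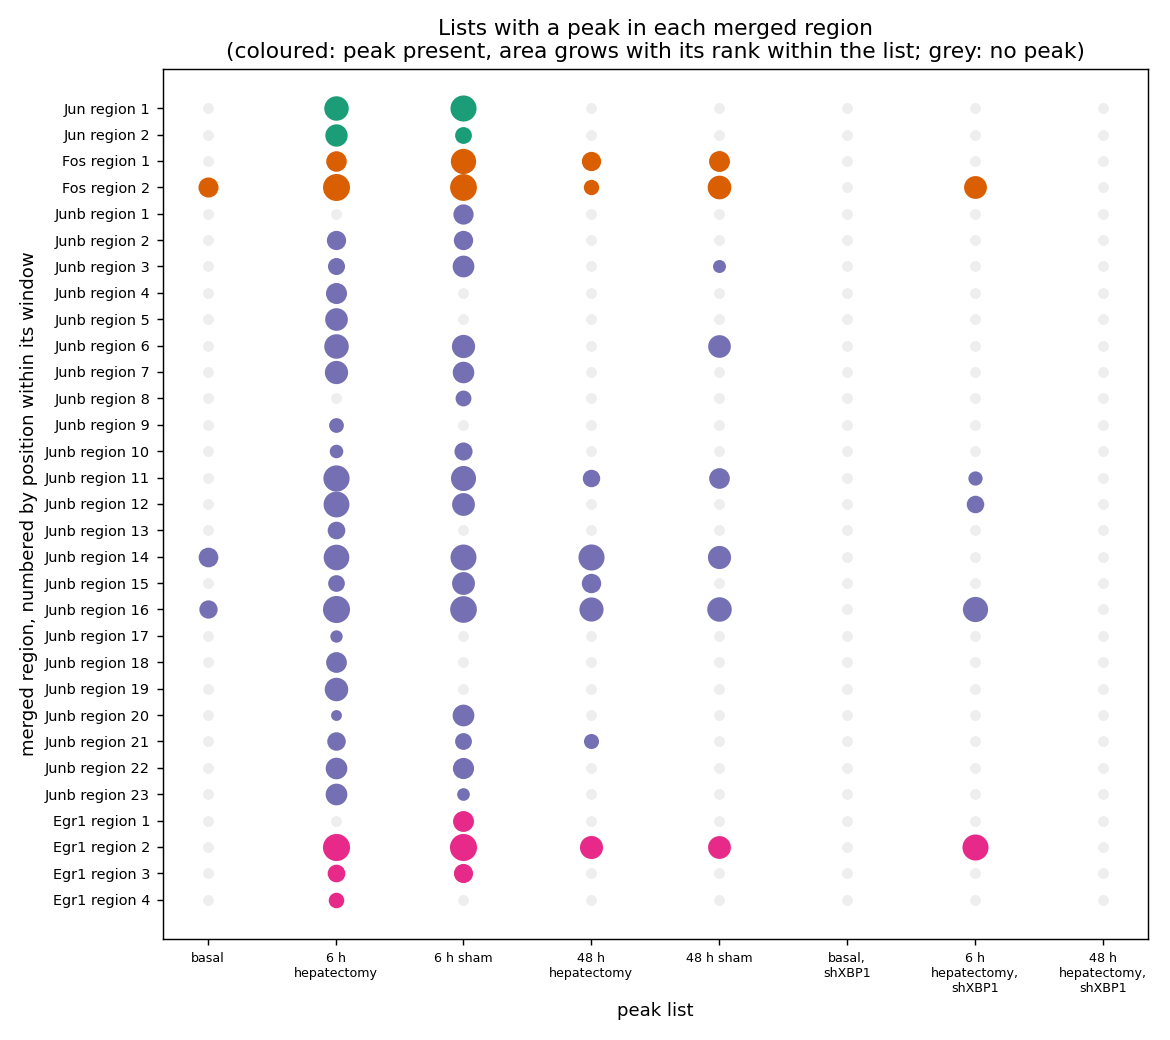
The 31 merged regions of the 4 windows (vertical axis, numbered by position within the window) and the 8 lists (horizontal axis); a coloured dot marks a peak, its area grows with the peak's rank within its list, and grey marks no peak. Fos region 2, the Fos site at higher coordinates, and Junb region 16 have a peak in 6 lists, Egr1 region 2, the dominant Egr1 site, in 5, and both Jun regions in the 2 unsilenced 6 h lists.

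Silencing serves as a control for the antibody signal. At 6 h after hepatectomy 5 of 28 window peaks overlapped a peak of the silenced list (17.9%, 6.06 to 36.9%), and the share in the whole list was 18.9%. They were the dominant Egr1 site, the Fos site at higher coordinates and Junb regions 11, 12 and 16. Neither Jun site was among them. Requiring an overlap of 50% or more of each peak gave a share of 7.14%. Between the 4325 highest-scoring peaks of the unsilenced list and the whole silenced list it was 83.3%, from 6 window peaks. No whole-list share was computed under either of these settings, and the 18.9% covers peaks of every score. The values of 7.14% and 83.3% therefore have no background beside them and do not set the window peaks apart. In the whole list, 75.6% of peaks with a score of 51.92 or more had a silenced counterpart.

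The 5 window peaks with a silenced counterpart were the 5 highest by score of the 28. The lowest of them, Junb region 12 between 87548985 and 87549600, had a score of 51.92, and the highest without a counterpart, Junb region 14, had 47.52. In the whole list the share with a silenced counterpart was 75.6% at a score of 51.92 or more and 8.35% below it. The limit was read off the window peaks, so the count of 5 above and 0 below it is a description. XBP1 left after silencing and signal of another source cannot be told apart at the sites that had a peak in silenced liver.

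In basal liver 0 of 3 window peaks had a silenced counterpart, with 4.75% in the whole list, and at 48 h it was 0 of 8, with 0.915%. Given such shares, a count of 0 says little about the sites. The peaks of these 2 silenced lists were also narrow, with median widths of 103 bp and 94 bp, while the other 6 lists had medians from 290 bp to 429 bp.

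**Figure D5:**
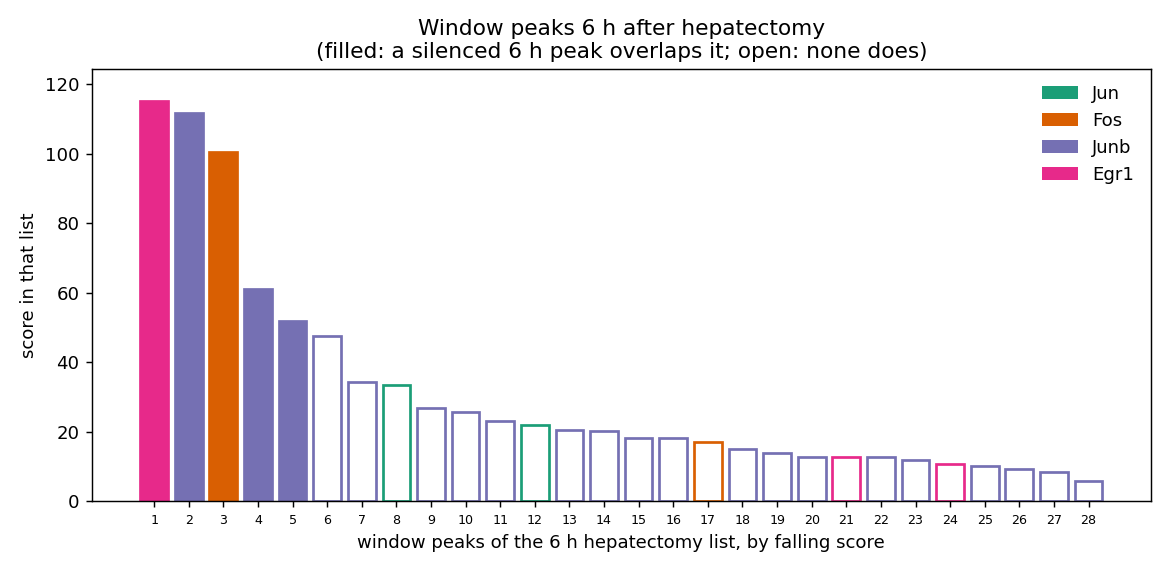
Score (vertical axis, the peak caller's value) of the 28 window peaks in the 6 h hepatectomy list, ordered by falling score and coloured by gene; filled bars overlap a peak of the silenced 6 h list and open bars do not. The 5 filled bars, from 115.26 down to 51.92, are the 5 tallest, and both Jun bars are open.

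At the window edges, the peak nearest to a limit was 1 of the 6 h sham list in the Junb window, between 87489863 and 87490171, with its midpoint at 87490017, just inside. The nearest peaks outside the Junb window were 6.08 kb below it and 4.88 kb above it in the 6 h hepatectomy list. Outside the Jun window they were 22.8 kb below and 68.2 kb above, and outside the Egr1 window 66 kb below and 47.3 kb above, so those 2 windows could be widened by 20 kb without a change in that list. The Fos window had a peak 3.68 kb below its lower limit in that list.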

How the data were processed

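XBP1 ChIP-seq peaks of 8 liver libraries were used, and the input DNA, the 9th sample, was not analysed here. Bowtie2, MACS 1.4.2 and build mm9 are named in the submitters' processing notes; the sources used here give neither settings nor the control for peak calling. Each deposited list gives 1 score per peak, made by the authors' peak caller per library. Its scale is not stated; the lowest values, 4.33 to 5.27, fit −log10 of p, so 10 was used as a stricter limit. Scores rank or filter peaks only within a list. Positions are 1-based.

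Groups came from sample titles. Peaks with their midpoint in a window were counted and ranked (ties share the best rank). Overlap meant at least 1 bp, and the 8 lists were merged into regions by the same rule. As background, windows of the same width were laid end to end on each chromosome up to its last peak. Intervals are Clopper-Pearson, 95%. Counting was checked on simulated lists. Python 3.11.15, NumPy 2.4.6, pandas 2.3.3, SciPy 1.17.1 and matplotlib 3.10.9 were used. Alternatives covered window membership, score, merging, width, list length and overlap. The named sites of each gene were those highest in any list or present in at least 4 lists, plus others named for a comparison after their values were seen. Members, windows and gene lists were chosen with earlier results of these data known. The gene and promoter tables are GRCm38, so nothing was placed relative to genes in mm9.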

Additional observations from a re-analysis of the deposited data

How the results depend on the processing

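No paired analysis was possible because each condition had 1 library. The number of window peaks per list stayed within 1.5 times its value in 8 of 8 lists when any overlap with the window counted, when peaks within 500 bp were merged (22 in place of 28 peaks 6 h after hepatectomy) or when peaks over 2 kb were dropped. A score of at least 10 left 5 window peaks 48 h after hepatectomy and moved the other 7 lists by no more than 1.5 times. With the 2482 highest-scoring peaks per unsilenced list, 3 window peaks were left in each 6 h list and 2 at 48 h after hepatectomy. Without the Junb window, an alternative chosen after seeing the data, 1 peak was left in basal liver, 7 in each unsilenced 6 h list, 3 in each unsilenced 48 h list and 2 in the silenced 6 h list, and 100% of 48 h hepatectomy peaks had a sham counterpart. Shares of peaks with a counterpart stayed inside their 95% intervals in all 9 comparisons when midpoints had to lie 250 bp apart or less, when 50% or more of each peak had to overlap, and at a score of at least 10. Between equal numbers of highest-scoring peaks, 5 of 7 shares left their intervals. They were 66.7% with basal liver for both the 6 h hepatectomy and the 6 h sham list. The others that left were 62.5% of 48 h with 6 h hepatectomy peaks, 50% of 48 h with 6 h sham peaks, and 83.3% of 6 h hepatectomy with silenced peaks. The 2 shares of hepatectomy with sham peaks stayed inside, at 71.4% for 6 h and 80% for 48 h. Keeping tied peaks at the limit, added after seeing the data, left these values as they were and gave 7 in place of 6 window peaks in the 48 h sham list. That setting left no window peak for the basal or 48 h comparison with silencing. For these alternative shares of peaks with a counterpart, no whole-list share was computed. The 19 top percents of the highest peak per window and list were set against a 95% interval computed as if the rank were a count out of its list. Such an interval narrows as a list gets longer and measures no spread of the rank, so it served only as an arbitrary limit. Ranking by width in place of score moved 19 of 19 beyond that limit. Giving ties the worst rank moved 7 of 19, the most for Fos 48 h after hepatectomy, from 61.9% (limits 60.7 to 63%) to 69.7%. Dropping peaks over 2 kb moved 0 of 19. Depth per library is not given in the sources used here, and its part in the counts was not tested.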

Other observations

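A site just below the Fos window, singled out after its values were seen, ranked higher than either Fos site in 6 of 8 lists. It lay on chromosome 12, between 86795961 and 86796682 in the 6 h hepatectomy list, where it had a score of 215.01 and rank 425 (top 1.93%). It stood at top 3.4% in the 6 h sham list, 4.4% and 5.78% in the 48 h hepatectomy and sham lists, 12.7% in basal liver and 7.72% in the silenced 6 h list. In GRCm38 the protein-coding gene before Fos is Tmed10, which encodes a cargo receptor of the early secretory pathway, and the one after it is Jdp2, a partner of Jun proteins. The site was not assigned to any of these genes.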
